A study of Rattus norvegicus and Mus musculus with 251 samples.

Results

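Interferon response and antigen presentation genes were followed in the mouse prefrontal cortex (PFC) and nucleus accumbens (NAc) of a study of morphine drinking. The 31 genes were chosen by symbol and matched to their Ensembl identifiers in the table of raw read counts, and all 31 were found among its 46078 genes. They are ordered here by role. Stat2, Irf9 and Irf7 are transcription factors. Ifih1, Ddx58 and Dhx58 encode sensors of viral RNA. Isg15 and Usp18 encode a ubiquitin-like modifier and the enzyme that removes it. The antiviral effectors are Ifit1, Ifit2, Ifit3, Oas1a, Oasl2, Rsad2, Bst2, Ifitm3, Ifi27, Rtp4, Parp14, Trim30a, Xaf1 and Samd9l. Gbp2, Gbp3 and Gbp7 encode guanylate-binding proteins. Psmb8, Psmb9, Tap1, B2m, H2-K1 and H2-D1 encode the proteasome subunits, the peptide transporter, the light chain and the heavy chains of class I antigen presentation.

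Type I interferons bind a receptor on most cells, and the receptor's kinases activate STAT2, which acts with IRF9 to switch on a broad set of antiviral genes. Interferon-gamma has its own receptor and strongly raises the immunoproteasome, the peptide transporter and the class I molecules that show peptides to CD8 T cells. In the brain, microglia and blood vessel cells express many of these genes at rest, and neurons use class I molecules at synapses as well.

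The mice were C57BL/6J animals of both sexes that drank either a saline or a morphine solution, and their ages are not used here. The saline group had 6 PFC and 7 NAc libraries, the chronic morphine group 8 and 8, the group killed 24 h after morphine 9 and 9, and the group killed 2 weeks after morphine 7 and 8. In the same order, 3, 3, 4 and 3 libraries in each region were labelled female, and all 62 mouse libraries carried 1 batch label. Each library was total RNA from a small tissue punch. The number of a library (1 to 32) came from its title and was used in both regions, but no label says that a number is an animal, so the p-values measure the spread between these libraries. All 3 morphine groups were compared with the same saline libraries.

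The libraries held between 5182601 and 41532464 counts in PFC (median 29999922, n = 30) and between 22387525 and 43963295 in NAc (median 32159518, n = 32). The label gives the cell type as neuron, whereas markers of other cells were plain: the summed CPM (counts scaled to library size) had medians of 390 in PFC and 452 in NAc for 7 microglial markers, 215 and 120 for 6 endothelial markers, 1081 and 928 for 5 astrocyte markers, and 4356 and 6478 for 4 oligodendrocyte markers. B cell markers had medians of 0.239 and 0.077 CPM, and the neutrophil marker Ly6g was at 0 in every PFC library. T cell markers had medians of 0.893 CPM in PFC and 23.05 in NAc, where the sum reached 77.7. Only 1 of the 4 T cell markers passed the low-count filter in each region. Choroid plexus markers had medians of 9.69 and 82.8 CPM and reached 3425 in PFC and 783 in NAc. In such bulk tissue, fewer cells of a type and less RNA per cell cannot be told apart.

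Several libraries stood apart before any comparison was made. PFC number 10, a female of the 2-week group, had the lowest depth (5182601), 21.1% of its reads not aligned, 16 of the 31 genes at 0 counts and 7 of them at the highest level of any PFC library. Number 27, labelled female in the chronic group, had Kdm5d, a gene on the Y chromosome, at a log2 CPM of 3.56 in PFC and 4.56 in NAc, within or near the range of the labelled males (3.31 to 4.48 and 4.29 to 4.82). The other labelled females lay at or below -2.08 for this gene in both regions. Numbers 25 to 29, which are 5 of the 8 chronic libraries in each region and include all 3 labelled females, were separated from every other number by H2-T22, a class I gene outside the list, and by Bfsp2. A further 5 genes outside the list split the numbers another way: 12 of the 30 numbers with both libraries lay on the low side, among them every 2-week library, 3 saline numbers, 2 of the 24 h numbers and no chronic number. Results that rest on these libraries are given with and without them.

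H2-K1 and H2-D1 differed in sign under chronic morphine, so the ability of 75-base reads to separate them was examined. Their coding sequences (1107 and 1086 bases) were 91.5% identical over 1077 aligned positions, with 92 differing positions. Of 925 aligned windows of 75 bases, 24 were identical and the median window held 6 differences. The stretches printed here are from the GENCODE transcripts on GRCm38, 5′ to 3′, and capitals mark the bases that differ between the 2 genes. The first is a window within which no single read could be assigned, at coding bases 656 to 730 of H2-K1 and 665 to 739 of H2-D1. The other pair is the aligned window with the most differences (16), at coding bases 477 to 551 of H2-K1 and 486 to 560 of H2-D1.
H2-K1 and H2-D1, identical window: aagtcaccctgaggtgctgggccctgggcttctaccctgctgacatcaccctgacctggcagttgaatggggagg
H2-K1, window with most differences: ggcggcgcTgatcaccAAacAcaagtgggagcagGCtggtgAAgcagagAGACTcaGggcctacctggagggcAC
H2-D1, window with most differences: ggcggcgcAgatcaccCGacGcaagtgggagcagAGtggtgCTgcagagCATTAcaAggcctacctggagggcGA

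A read from most of these windows therefore differs between the 2 genes. Over all annotated exons, 3.10% of the 75-base stretches of H2-K1 and 5.56% of those of H2-D1 also occur in another gene, mostly in other class I genes or pseudogenes. Levels are less certain for Oas1a (47.6% shared, mostly with Oas1g), Ifit3 (41.1%, with Ifit3b), Gbp7 (11.3%), Rtp4 (10.5%), Psmb8 (9.97%) and Ifit1 (5.19%). Psmb9 and Tap1 overlap on opposite strands, and whether the counting used strand was not stated.

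The class I light chain B2m had the highest level per kilobase of exon of the 31 genes, with a mean of 294 ± 38.2 TPM-like units (SD, n = 30) in PFC and 211 ± 51.0 (SD, n = 32) in NAc. H2-D1 followed with 114 ± 30.3 in PFC and 79.3 ± 29.1 in NAc. Ifi27, which encodes a small interferon-induced membrane protein, had 54.2 and 57.5, and Ifitm3, whose protein blocks virus entry, had 56.3 and 25.7. H2-K1 had 38.0 and 26. Oas1a was the lowest in both regions, at 0.518 and 0.412, so its log2 values rest on few counts. These levels are counts per kilobase scaled to the same total in every library, and all other values below are log2 CPM or log2 fold changes for 1 gene at a time.

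NAc lay below PFC for most of the 31 genes. In the fit over both regions, 14 of 31 passed the test, 13 lower and 1 higher in NAc (edgeR quasi-likelihood test, adjusted p under 0.05 over all genes). Of all 19266 genes tested, 66.2% passed it, so the share of members that passed was below the background; the members' median log2 fold change was -0.31 against 0.07 for all genes. Ifitm3 had the lowest fold change, -1.21 ± 0.13 (SE, edgeR adjusted p = 3.00e-12), and its saline libraries ran from 2.68 to 3.61 (median 3.28) in PFC and from 1.46 to 2.58 (median 2.16) in NAc. The saline libraries of the 2 regions did not overlap for this gene. Ifih1, the sensor MDA5, followed with -1.09 ± 0.13 (edgeR adjusted p = 5.30e-10), and its saline medians were 2.65 in PFC and 1.46 in NAc, again with no overlap.

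The other genes lower in NAc spanned most roles. The guanylate-binding protein gene Gbp2 fell by 0.81 on the log2 scale from PFC to NAc. H2-K1, H2-D1 and B2m fell by 0.66, 0.61 and 0.58, so the class I heavy and light chains were all lower. Isg15, the transcription factor Irf7 and Ifit2, which binds viral RNA, fell by 0.54, 0.53 and 0.50. Samd9l, Psmb8, Ddx58 and Stat2 completed the set, with values from -0.39 to -0.15. The calls of Isg15, Samd9l and Stat2 depended on the fit: all 3 were lost without number 27 (edgeR adjusted p = 0.102, 0.0516 and 0.0741), and Samd9l and Stat2 were lost with the replicate number as a block (edgeR adjusted p = 0.104 and 0.0933), which called Xaf1. Stat2 was also lost in DESeq2, with other size factors and with no filter. Dhx58, which encodes the RNA sensor LGP2, was the 1 gene higher in NAc, by 0.61 ± 0.17 (SE, edgeR adjusted p = 0.00144). Tap1, Psmb9 and Irf9, whose products work with those of genes that did pass, did not pass the test.

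Markers of several cell types differed between the regions as well. All 6 endothelial markers, all 4 mural markers and all 4 perivascular macrophage markers were lower in NAc by the same test, with list medians of -0.95, -0.93 and -1.96. The summed endothelial markers ran from 153 to 290 CPM in PFC and from 51.3 to 181 CPM in NAc. Of the other lists, 4 of 6 neuronal markers were lower in NAc and 2 higher (list median -0.93), 4 of 5 blood markers were lower (-0.69), and 3 of 5 astrocyte markers were lower and 1 higher (-0.31). In the other direction, 6 of 7 microglial markers (list median 0.32) and all 4 oligodendrocyte markers (0.55) were higher in NAc. So were 3 of 4 choroid plexus markers (1.85), all 4 striatal projection neuron markers (5.14) and 1 of 2 tested T cell markers (2.94). The 1 tested B cell marker was lower (-1.21), and 0 of 2 tested neutrophil markers passed. The part of these cell types in the lower interferon response genes was not tested. Without PFC number 10 the count of members was 16 rather than 14, with Bst2, Gbp3, Parp14 and Rtp4 gained and Isg15 and Stat2 lost.

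Few of the 31 genes changed with morphine in PFC. In chronic morphine against saline, 0 of 31 passed the edgeR test (5 at an unadjusted p under 0.05), against 0.417% of all 17966 genes tested. DESeq2 called 2 of the members, H2-D1 and H2-K1, and 173 of all 17966 genes. At 24 h, 0 of 31 passed the edgeR test (3 at an unadjusted p under 0.05), 0 passed in DESeq2, and the background was 0.0779%. At 2 weeks the counts were 0 by edgeR, 6 at an unadjusted p under 0.05 and 0 by DESeq2, and the background was 0.00557%. Each background, here and below, is the share of all genes with an edgeR adjusted p under 0.05. Counts at an unadjusted p cannot be set against it. These 2-week counts include PFC number 10. It was the highest 2-week library for Psmb8, Isg15, Ddx58, Ifitm3 and H2-K1, which were among the 6. The joint test of any difference among the 4 treatments called 2 members, H2-K1 and H2-D1, against 0.707% of all genes.

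In NAc, chronic morphine against saline called 1 of 31 genes, H2-K1, which was lower (edgeR, background 1.69%). DESeq2 called 3 there, H2-K1, Tap1 and Xaf1, and 691 of all 18382 genes. At 24 h, 0 passed the edgeR test (3 at an unadjusted p under 0.05), 0 passed in DESeq2, and the background was 0.163%. At 2 weeks the counts were 0 by edgeR, 2 at an unadjusted p under 0.05 and 0 by DESeq2, and the background was 0.00544%. The joint test called H2-K1 alone, with a background of 1.84%. Beyond H2-K1 and H2-D1, the main edgeR fits called no other member at any stage. With the 5-gene split as a covariate, edgeR also called Tap1 under chronic morphine in NAc.

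**Figure D1:**
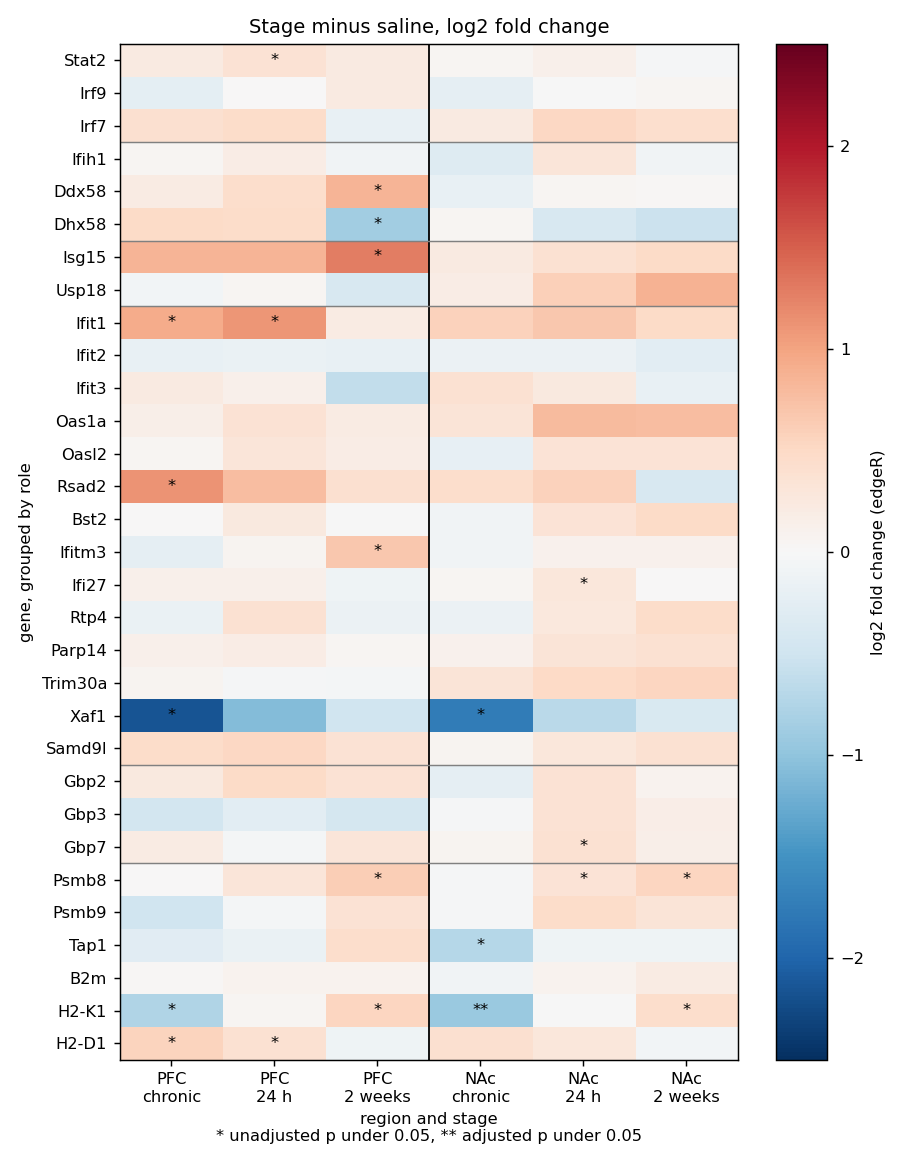
Log2 fold change against saline for the 31 genes (rows, by role) in the 3 morphine groups of each region (columns); 1 asterisk marks an unadjusted p under 0.05 and 2 asterisks an adjusted p under 0.05 (edgeR). The only adjusted call of a single stage is H2-K1 under chronic morphine in NAc (-0.92), and Xaf1 has the lowest values (-2.15 in PFC, -1.75 in NAc).

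H2-K1, a classical class I heavy chain gene (chromosome 17, 33996017 to 34000347, minus strand, GRCm38), was lower under chronic morphine. In NAc its log2 CPM ran from 3.54 to 4.80 in saline (median 4.34, n = 7), from 2.81 to 3.96 in chronic morphine (median 3.43, n = 8), from 3.62 to 4.93 at 24 h (median 4.25, n = 9) and from 4.42 to 5.17 at 2 weeks (median 4.74, n = 8). The chronic and saline libraries overlapped, whereas every 2-week library lay above every chronic one. The chronic fold change was -0.92 ± 0.18 (SE, edgeR adjusted p = 0.00722), and the joint test gave an edgeR adjusted p of 0.000419 with stage values of -0.92, -0.01 and 0.44.

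In PFC the H2-K1 libraries ran from 4.64 to 5.30 in saline (median 4.91, n = 6), from 3.72 to 5.00 in chronic morphine (median 3.95, n = 8), from 4.49 to 5.91 at 24 h (median 4.76, n = 9) and from 4.93 to 6.06 at 2 weeks (median 5.39, n = 7). The highest 2-week library was number 10 (346 counts), which enters the 2-week value and the joint test given next. Chronic and saline overlapped only through chronic numbers 30 and 31. The chronic fold change was -0.75 ± 0.19 (SE, edgeR adjusted p = 0.0856), and the joint test gave an edgeR adjusted p of 0.00166 with stage values of -0.75, 0.04 and 0.53. Without PFC number 10 the chronic comparison passed (edgeR adjusted p = 0.0290), as it also did without number 16, 30 or 31. The test of a stage effect that differs between NAc and PFC gave an edgeR adjusted p of 0.998 for H2-K1.

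The low H2-K1 values of chronic morphine came largely from numbers 25 to 29. In PFC these 5 had 3.94, 3.79, 3.96, 3.72 and 3.86, below every other PFC library, while numbers 30 to 32 had 5.00, 4.92 and 4.26. In NAc they had 3.34, 3.52, 2.93, 2.81 and 3.21, below every saline library and below numbers 30 to 32 (3.69, 3.96 and 3.90). H2-T22, the gene that set these numbers apart, was itself lower in chronic morphine, with values of -2.43 ± 0.44 in PFC and -1.60 ± 0.25 in NAc (SE, edgeR adjusted p = 0.00358 and 0.00127). Because H2-T22 was picked for separating these 5 chronic numbers, its low chronic values follow from that choice and are a description. Chronic numbers 30 to 32 had H2-T22 levels of 3.36, 2.72 and 2.99 in PFC and 2.32, 2.86 and 2.68 in NAc, within the saline ranges of 2.57 to 4.08 and 2.21 to 3.61.

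With the males alone and without numbers 25 to 29, which leaves numbers 30 to 32 as the chronic group, the H2-K1 chronic value was -0.02 in PFC and -0.22 in NAc (edgeR adjusted p = 1.0 and 0.826). With the split of the 5 other genes as a covariate, the PFC value was -0.44 (edgeR adjusted p = 1.0) and the NAc value -1.12 (edgeR adjusted p = 0.0359). Within a treatment and sex, that split varies only among the 24 h males. Its coefficient therefore came from numbers 16 and 17 against numbers 22, 23 and 24 alone, and adjusted values elsewhere extrapolate from them. Without number 27 the NAc value was -0.85 (edgeR adjusted p = 0.0376), and the joint tests gave edgeR adjusted p-values of 0.0101 in PFC and 0.00384 in NAc. The refit of males and the covariate were chosen after seeing the data.

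**Figure D2:**
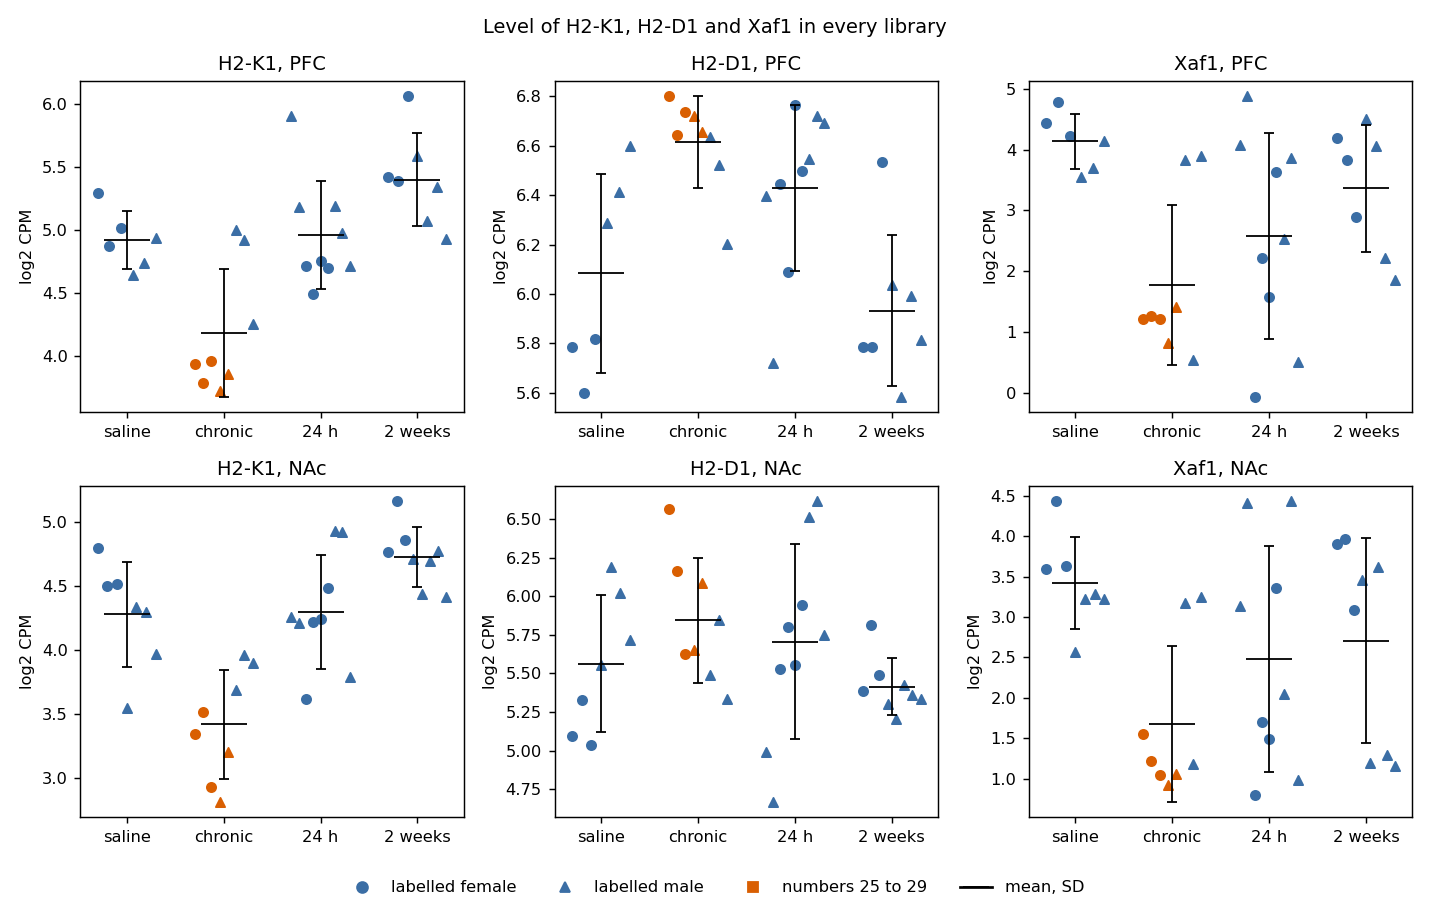
Log2 CPM of H2-K1, H2-D1 and Xaf1 in each library by treatment, with PFC above and NAc below; circles are labelled females, triangles labelled males, orange marks numbers 25 to 29, and bars show the group mean and SD. Numbers 25 to 29 lie at the bottom of the chronic groups for H2-K1 (3.72 to 3.96 in PFC), while H2-D1 in PFC is high in the chronic group (6.20 to 6.80).

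H2-D1, the other classical heavy chain gene (chromosome 17, 35262730 to 35267499, plus strand), was not lower in the same libraries. In PFC it ran from 5.60 to 6.60 in saline (median 6.05), from 6.20 to 6.80 in chronic morphine (median 6.65), from 5.72 to 6.76 at 24 h (median 6.50) and from 5.58 to 6.53 at 2 weeks (median 5.82). The chronic libraries sat in the upper part of the saline range or above it, with overlap. The chronic value was 0.56 ± 0.14 (SE, edgeR adjusted p = 0.0845), and the joint test passed with an edgeR adjusted p of 0.0156 and stage values of 0.56, 0.38 and -0.12.

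The H2-D1 result also rested on which libraries were used. The chronic comparison passed without PFC number 10 or number 17 (edgeR adjusted p = 0.0173 and 0.0335), and without number 27 the joint edgeR adjusted p was 0.0489. With males alone and without numbers 25 to 29, the chronic value was 0.02 and the joint test gave an edgeR adjusted p of 0.491, and with the covariate the joint test gave 1.0. The 3 saline females had 5.79, 5.60 and 5.82 and the 3 saline males 6.28, 6.41 and 6.60, so the saline group itself was divided. The 3 saline females are numbers 1, 2 and 3, the only saline numbers on the low side of the 5-gene split, so sex and that split cannot be told apart in saline. In NAc the chronic value was 0.40 ± 0.21 (SE) and the joint edgeR adjusted p was 0.413. There the sign turned in both refits: the chronic value was -0.34 with the covariate and -0.32 in males without numbers 25 to 29 (joint edgeR adjusted p = 0.175 and 0.631). The coefficient of the covariate came only from the 24 h males, as above.

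The remaining antigen presentation genes did not pass in any stage comparison of the main edgeR fits. B2m was the steadiest, at 5.97 to 6.19 in PFC saline libraries and 5.88 to 6.52 in chronic ones, with a chronic value of 0.03. Tap1, a subunit of the transporter that carries peptides to class I molecules, ran in NAc from 1.42 to 2.20 in saline (median 1.74) and from 0.17 to 1.90 in chronic morphine (median 1.16). These groups overlapped, and the chronic value was -0.71 ± 0.21 (SE, edgeR adjusted p = 0.0772). In DESeq2 the comparison passed (DESeq2 adjusted p = 0.0290). Without number 25 it passed (edgeR adjusted p = 0.0385), and with the split of the 5 genes as a covariate it was -1.17 (edgeR adjusted p = 0.0366). The coefficient of that covariate came only from the 24 h males.

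Psmb8, an immunoproteasome subunit, ran in NAc from 1.33 to 1.80 in saline (median 1.54) and from 1.69 to 2.59 at 2 weeks (median 1.99), with overlap, and its value was 0.54 ± 0.17 (SE, edgeR adjusted p = 0.405). DESeq2 called Psmb8 in the joint test in NAc. In PFC its 2-week value was 0.62, and 0.28 without number 10. Psmb9, its partner subunit, had stage values between -0.49 and 0.45 and no unadjusted p under 0.05.

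Xaf1, which encodes an interferon-induced protein that promotes cell death (chromosome 11, 72301629 to 72313733, plus strand), spread more than any other member within groups. In PFC it ran from 3.54 to 4.77 in saline (median 4.18), from 0.55 to 3.89 in chronic morphine (median 1.25), from -0.07 to 4.88 at 24 h (median 2.54) and from 1.85 to 4.50 at 2 weeks (median 3.82). Chronic and saline overlapped only through numbers 30 and 32. The chronic value was -2.15 ± 0.60 (SE, edgeR adjusted p = 0.138).

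In NAc, Xaf1 ran from 2.56 to 4.43 in saline (median 3.29), from 0.92 to 3.25 in chronic morphine (median 1.20), from 0.81 to 4.43 at 24 h (median 2.05) and from 1.16 to 3.96 at 2 weeks (median 3.28). The chronic value was -1.75 ± 0.52 (SE, edgeR adjusted p = 0.0820). Of the 30 numbers with both libraries, the same 12 were the lowest in PFC (at most 2.22, the rest at least 2.54) and in NAc (at most 1.70, the rest at least 2.05): chronic numbers 25 to 29 and 31, the 24 h numbers 18, 19, 20 and 24, and the 2-week numbers 14 and 15. No saline number was among them, and the choice of 12 was made after seeing the values. The lowest 11, 13 and 14 numbers were also the same in both regions. With 13 the NAc gap was wider (at most 2.05, the rest at least 3.09), so 12 is 1 cut of several. With males alone and without numbers 25 to 29 the chronic values were -0.48 in PFC and -0.32 in NAc.

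Among the other effectors, Ifit1, whose protein binds viral RNA that lacks a methylated cap, ran in PFC from 0.00 to 1.48 in saline (median 0.34), from 1.09 to 1.84 in chronic morphine (median 1.49) and from 0.67 to 2.34 at 24 h (median 1.59). Saline number 3 was the only saline library within the range of either morphine group. Its values were 0.94 ± 0.39 in chronic morphine and 1.11 ± 0.38 at 24 h (SE, edgeR adjusted p = 0.537 and 1.0). Rsad2, which encodes viperin, had a chronic PFC value of 1.11 (edgeR adjusted p = 0.554).

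Ifi27 ran in NAc from 3.94 to 4.68 in saline (median 4.24) and from 4.08 to 4.96 at 24 h (median 4.64), with a value of 0.28 ± 0.11 (SE, edgeR adjusted p = 0.321). Ifitm3 had a PFC value of 0.67 at 2 weeks, but 0.12 without number 10. Ifit2, Ifit3, Oas1a, Oasl2, Bst2, Rtp4, Parp14, Trim30a and Samd9l had no unadjusted p under 0.05 in any of the 6 comparisons with saline, with values between -0.62 and 0.80.

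The upstream members showed no call. Stat2, whose product acts with that of Irf9, ran in PFC from 4.0 to 4.38 in saline, from 3.58 to 4.70 in chronic morphine, from 3.78 to 5.03 at 24 h and from 3.95 to 4.84 at 2 weeks. The morphine groups spread to both sides of the saline range. In NAc its saline libraries ran from 3.85 to 4.34 and the others from 3.91 to 4.58. Its largest stage value was 0.36 at 24 h in PFC (unadjusted p in edgeR = 0.0367). Irf9 had values between -0.25 and 0.23, and Irf7 values between -0.18 and 0.51, none with an unadjusted p under 0.05.

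Among the RNA sensors, Ddx58, which encodes RIG-I, ran in PFC from 1.28 to 2.48 in saline (median 1.99) and from 1.82 to 4.06 at 2 weeks (median 2.48). The groups overlapped, and the value was 0.85 ± 0.28 (SE, edgeR adjusted p = 0.855), or 0.50 without number 10, which was the highest library. Dhx58 had a PFC value of -0.88 at 2 weeks, where number 10 had 0 counts, and Ifih1 had values between -0.31 and 0.31.

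Isg15 ran in PFC from -1.54 to 0.36 in saline (median -0.38) and from -0.23 to 2.73 at 2 weeks (median 0.30). Its value of 1.28 ± 0.48 (SE, edgeR adjusted p = 0.855) became 0.73 without number 10. Usp18, the ISG15 protease, had values between -0.40 and 0.88. Among the genes of guanylate-binding proteins, GTPases that attack membranes around intracellular microbes, Gbp7 had the smallest unadjusted p (0.0267 in edgeR) with a value of 0.38 at 24 h in NAc, and Gbp2 and Gbp3 had values between -0.46 and 0.48.

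As a list, the 31 genes had their highest median at 24 h in NAc, 0.31 with 25 positive values, against -0.01 for all genes. At 24 h in PFC, 24 were positive with a median of 0.19 against 0.01. At 2 weeks the medians were 0.19 in PFC (18 positive, all genes -0.05) and 0.16 in NAc (22 positive, all genes 0.00), and under chronic morphine they were 0.07 in PFC (21 positive, all genes 0.01) and -0.02 in NAc (15 positive, all genes -0.01). This order did not hold under other settings. With the split of the 5 genes as a covariate, the NAc medians were 0.08 at 24 h (19 positive), 0.56 at 2 weeks (27 positive) and -0.34 under chronic morphine (4 positive). The coefficient of that covariate came only from the 24 h males, numbers 16 and 17 against 22, 23 and 24. These medians therefore extrapolate from 5 libraries. With males alone and without numbers 25 to 29, the 24 h medians were 0.40 in PFC (28 positive) and 0.38 in NAc (30 of 30 tested positive), and the 2-week PFC median was 0.04. The 2-week PFC median was 0.0092 without number 8, 0.01 without number 9, and at most 0.26 with any 1 library left out. With 1 library left out, the medians ranged from 0.12 to 0.30 at 24 h in PFC, from 0.21 (without number 22) to 0.37 at 24 h in NAc, from 0.12 to 0.27 at 2 weeks in NAc, from 0.01 to 0.18 under chronic morphine in PFC and from -0.05 to 0.03 in NAc. These medians describe the list and carry no test of their own.

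Number 22, a male of the 24 h group, carried the highest levels. Of the 31 genes, 26 in PFC and 29 in NAc lay above the median of its group, while 45.9% and 44.6% of all genes did. It had the highest level in its whole region for 7 of the genes in PFC and 10 in NAc. Number 23 of the same group had 21 and 26 above the median, whereas number 18 had 5 and 4. Number 22 also had the highest summed astrocyte markers of its group, 1439 CPM in PFC (the others 826 to 1107) and 1349 CPM in NAc (778 to 1124), and the highest endothelial markers in NAc, 181 CPM (107 to 145). Its microglial markers lay within the others' range, at 365 CPM in PFC (340 to 462) and 576 CPM in NAc (369 to 645). The part of these cells in its high levels was not tested.

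**Figure D3:**
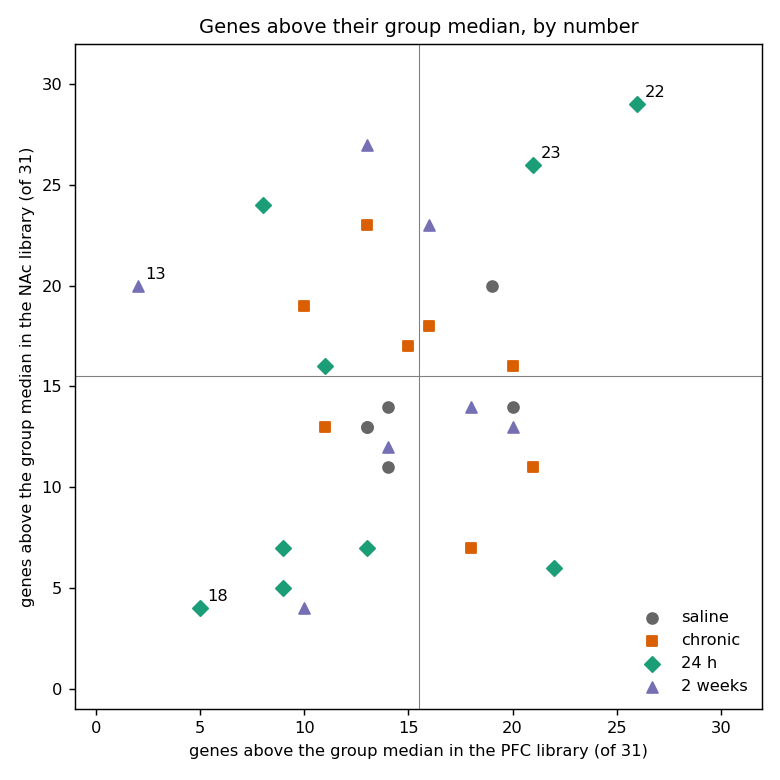
Number of the 31 genes above their group's median in the PFC library (horizontal axis) and the NAc library (vertical axis) of each of the 30 numbers with both; each point is 1 number, shape and colour give its treatment, and grey lines mark the middle of the list. Number 22 lies at the upper right (26 and 29), number 18 at the lower left (5 and 4), and number 13 is low in PFC only (2 and 20).

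High and low numbers were shared between the regions for some genes only. Numbers were ranked over all 4 treatments without removing treatment differences, so a gene low in the same treatment in both regions also shares numbers. Of the 10 lowest PFC and 10 lowest NAc numbers, 9 were the same for Xaf1, as many as in 0.145% of all 19266 genes. For H2-D1 8 were the same (0.685% of genes had as many), all 8 on the low side of the 5-gene split. For H2-K1 7 were the same (3.30%), none of them on that side. The median was 4 for the members and 4 for all genes. Chronic numbers 26 to 29 and 31 were among the 9 of Xaf1. The 7 of H2-K1 held chronic numbers 25 to 29 and 32. The members also spread more than other genes within groups, with a median SD of 0.479 against 0.298 for all genes in NAc. In PFC the median SD was 0.476 against 0.300 without number 10. Xaf1 had the largest SD in both (1.30 and 1.12), and the smallest were B2m in PFC (0.19) and Stat2 in NAc (0.15). Members and all genes were not matched for level in this comparison. Some members had few counts, such as Usp18 with 3 to 62 in NAc, so spread cannot be told apart from low level here.

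The sexes were compared next. Female against male over all treatments called 0 of 31 in PFC (edgeR; 0 at an unadjusted p under 0.05, 0 by DESeq2; background 0.0334%) and 0 of 31 in NAc (3 at an unadjusted p under 0.05, 0 by DESeq2; background 0.0598%). The test of a stage effect that differs between the sexes called 0 of 31 in PFC (edgeR; 3 unadjusted, 0 by DESeq2; background 0.0%) and 0 of 31 in NAc (5 unadjusted, 0 by DESeq2; background 0.0544%). Within the labelled sexes, H2-K1 under chronic morphine in NAc was -1.35 ± 0.29 in females and -0.50 ± 0.23 in males (SE, edgeR adjusted p = 0.0194 and 0.448). H2-D1 in PFC was 1.0 ± 0.21 in females and 0.12 in males (edgeR adjusted p = 0.0305 and 1.0). The joint test of a difference between the sexes over all 3 stages did not pass for either gene (edgeR adjusted p = 0.517 and 0.769). The chronic difference alone was not tested. One of the 3 chronic females is number 27, whose label goes against Kdm5d, and neither female value passed without it: H2-K1 in NAc was -1.19 ± 0.32 and H2-D1 in PFC 0.99 ± 0.23 (SE, edgeR adjusted p = 0.144 and 0.110). Without it, 0 of 31 passed any of the 4 sex tests (edgeR; 0 and 1 at an unadjusted p under 0.05 for female against male in PFC and NAc, 3 and 4 for the stage effect). All 3 chronic females are among numbers 25 to 29, so sex and that set of numbers cannot be told apart there. The test of a stage effect that differs between the regions called 0 of 31 (edgeR; 0 unadjusted, 0 by DESeq2; background 0.0363%).

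The rest of the pathway was followed through a further list of 57 genes, of which 56 were matched and 50 were tested in each region: interferons, receptors, kinases and factors, other sensors, other induced genes and further class I and class II genes. None was called in PFC at any stage by edgeR or DESeq2, with 0, 0 and 4 at an unadjusted p under 0.05 for chronic morphine, 24 h and 2 weeks. In NAc, Tap2, the other subunit of the peptide transporter, was called lower under chronic morphine, with a value of -0.63 ± 0.16 (SE, edgeR adjusted p = 0.0386). At 24 h and 2 weeks 0 were called in NAc by either tool (5 and 1 at an unadjusted p under 0.05). The joint test in NAc called Tap2 and the class II gene H2-Eb1, whose stage values were -1.25, -0.39 and 0.75 (edgeR adjusted p = 0.0383). The shares over all genes are those given for the members: 1.69% for chronic morphine and 1.84% for the joint test in NAc. Between regions, 27 of 52 (51.9%) passed in edgeR, below the 66.2% of all genes, 17 lower and 10 higher in NAc. Among them were Herc6 (-1.82), the ISG15 ligase gene of mice, Socs3 (-1.79), a feedback inhibitor, and the GTPase gene Mx1 (1.27).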

How the data were processed

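Raw read counts per gene were deposited by the authors as whole numbers, with 1 column per library; the submitters' processing notes name FastQC, cutadapt, Trimmomatic, STAR, HISAT2 and RSEM and the builds GRCm38 and Rnor_6.0, without saying which step made the mouse counts. Reads without a gene were left out when library sizes were set; their median shares were 5.43% with no feature, 0.832% ambiguous, 0.334% of low quality, 0.566% not aligned and 14.7% aligned to several places. Symbols matched 45143 of 46078 identifiers, and lengths and positions came from GENCODE (GRCm38). Rats were not used here.

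Counts were tested with edgeR 4.0.16 (R 4.3.3): TMM scaling, low-count filter, quasi-likelihood test, 1 coefficient per treatment and sex, contrasts averaged over the sexes, 1 fit per region and 1 over both, Benjamini-Hochberg adjustment over all genes and a threshold of 0.05. DESeq2 1.42.0, other scaling, no filter, left-out libraries and a replicate block were alternatives. Log2 CPM used a prior count of 2, so 0 counts appear as -3.96. The script was tested on simulated counts. The members and lists were chosen with earlier results of these data known. Members named with values were those called in a stage or sex test, those with the smallest p in each stage comparison, and the highest level and largest spread within each role; others were given by range.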

Additional observations from a re-analysis of the deposited data

Results flagged for a closer look

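Within groups of 6 to 9 libraries, 120 groups of the 15 named genes were searched for a single library far from the rest. Such a library was found in 11 of them. Several of the genes, among them Gbp2, Ifih1, Usp18 and Psmb9, were named for the largest spread in their role. The chance rate of about 1 in 20 therefore does not apply, and these 11 are a description. PFC number 10, the shallowest library, accounted for 5 of them: Gbp2, Ifih1, Ifit1 and Usp18 were each at -3.96 (0 counts) and Psmb8 was highest at 3.84 in the 2-week group. In NAc, number 9 of the 2-week group was highest for B2m (6.25) and for H2-D1 (5.82). In PFC, H2-D1 was lowest in chronic number 32 (6.20), Ifih1 was lowest in chronic number 25 (1.93), H2-K1 was highest in 24 h number 16 (5.91) and Psmb9 was lowest in 24 h number 18 (-1.53). Numbers 16 and 18 each stand apart for 1 of these genes only.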

How the results depend on the processing

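Under chronic morphine the number of members called was 0 in PFC by the reported edgeR fit and 2 by DESeq2, and ranged from 0 to 2 when 1 library was left out. In NAc it was 1, with 3 by DESeq2, 2 with the split of 5 genes as a covariate, 0 with males alone without numbers 25 to 29, and 1 to 2 with 1 library left out. In the joint tests it was 2 in PFC, with 0 under that covariate and 0 in those males, and 1 in NAc, with 2 by DESeq2, 0 in those males and 1 to 2 with 1 library left out (Psmb8 joined without NAc number 17). The covariate, the males and the both-region fit without PFC number 10 were chosen after seeing the data. The other counts of members stayed within 1.5 times; the count between regions was 14, and 11 to 16 over its alternatives. The 2-week PFC value of Ifitm3 was -0.20 in those males, against 0.67.

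All genes called moved more: for chronic morphine in PFC from 75 to 173 by DESeq2, 11 with the covariate and 46 to 178 with 1 library left out (46 without number 1, 47 without number 6 or 28, 178 without number 10); in NAc from 311 to 691 by DESeq2, 110 with the covariate, 0 in those males, 185 with no filter and 120 to 566 with 1 library left out (120 without number 27, 134 without 1, 185 without 6 and 566 without 25). The DESeq2 counts were 46 and 132 at 24 h (edgeR 14 and 30), and 357 and 870 in the joint tests (edgeR 127 and 338), for PFC and NAc. The cause of these moves was not tested. Over 30 numbers, the deviations of same-numbered libraries from their group means correlated by 0.0094 to 0.2295 (median 0.0952). All 30 values were positive and 13 passed 0.1. For 18 genes, the same numbers lay on either side of a gap in PFC and NAc, and number 27 went against its sex label in both. The main fit over both regions had no block on the number, so its p-values treat same-numbered libraries as independent. With the replicate block, 13 members and 12377 genes were called between regions, and 0 members in the test between regions of the stage effect. Depth limits the members with the lowest levels per length in NAc, Oas1a, Rsad2 and Usp18, and the 16 members at 0 counts in PFC number 10.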

Other observations

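The class I region of chromosome 17 was looked at after the values of H2-K1 and H2-T22 had been seen, so its counts are a description. Between the start of H2-K1 and the end of H2-T22 (33996017 to 36042747, GRCm38), 15 of 109 tested genes (13.8%) were called under chronic morphine in NAc, 11 lower and 4 higher, against 1.69% of all genes. In PFC 3 of 110 were called (2.73%, against 0.417%): H2-T22, H2-T23 and Gm10501, all lower. In the joint tests 19 of 109 (17.4%) were called in NAc and 11 of 110 (10%) in PFC. H2-T23, a nonclassical class I gene next to H2-T22, was lower in chronic morphine, with values of -2.34 in PFC and -1.50 in NAc (edgeR adjusted p = 0.00446 and 0.00631). Chronic numbers 30 to 32 had H2-T23 at 3.60, 3.32 and 2.97 in PFC, where saline ran from 3.03 to 4.33, and at 2.51, 2.69 and 2.91 in NAc, where saline ran from 1.68 to 3.41. In numbers 25 to 29, H2-T22 had log2 CPM values of -0.01, -0.62, -1.11, -0.57 and -0.90 in PFC and of 0.67, 0.78, 0.79, 0.85 and 0.75 in NAc.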
